A study of Drosophila melanogaster with 12 samples.

Results

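Odorant binding proteins (Obps) are small secreted proteins that carry hydrophobic odorants and tastants through the fluid around chemosensory neurons. The genes described here are the rows of the deposited gene table whose symbol begins with Obp followed by a digit, 49 genes of the 15423 in the table. By chromosome, 27 lie on 2R, 12 on 3R, 6 on X, 2 on 2L and 2 on 3L. The rule goes by symbol, so that lush, which encodes the protein also called Obp76a, falls outside it and is given with the other odour genes.

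The study compared heads of wild type (WT) Drosophila melanogaster with heads of ADAR hypomorph flies, which carry a transposon in an intron of Adar and have reduced levels of this RNA editing enzyme. Flies of each strain were grown at 18°C or at 29°C and collected 3 to 6 days after eclosion, and 3 libraries of each of the 4 groups were sequenced from the 3' ends of polyadenylated RNA. The labels give no sex and do not describe the genetic background of either strain, and the methods give the hypomorph strain an allele symbol that the discussion of the study uses for another mutant, so the insertion and other differences between the strains cannot be told apart. Nothing in the labels says that the libraries of a group came from separate cultures, so p-values measure the spread between these libraries, which may be technical.

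In flies, Obps are made mainly by support cells that surround the sensory neurons of antennae, palps, mouthparts and legs, and many sit in the genome in clusters of neighbouring genes. The best known act in smell, where lush is needed to detect the male pheromone cis-vaccenyl acetate, and others act in taste, humidity sensing or mating. Several are secreted by tissues with no sensory function, such as fat body, glia and the male reproductive tract. Classic Obps share a fixed pattern of cysteines, Minus-C members lack some of these, Plus-C members have additional ones, and dimer members join a pair of Obp domains in 1 protein.

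Each library held between 4409119 and 8806472 counts. In each group 1 column of the table carries no replicate number, and values below are in the order unnumbered library, replicate 2, replicate 3, as normalized read counts in the unit CPM, with library sizes scaled by the trimmed mean of M values (TMM). Since 1 tag is counted near the 3' end of each transcript, CPM of different genes were compared without division by length. Adar itself, whose 3' tags lie outside the interrupted intron, was at 40.2, 40.9 and 35.2 CPM in WT at 18°C and 37.3, 39.5 and 42.3 CPM in WT at 29°C, against 37.7, 22.5 and 28.0 CPM in the hypomorph at 18°C and 24.6, 23.5 and 21.7 CPM at 29°C. The unnumbered library labelled hypomorph at 18°C was thus within the WT range for Adar, although the summed photoreceptor markers, higher in the hypomorph throughout, were at 22643 CPM there against 6138 to 6903 CPM in WT at 18°C. Obp calls that rest on this library are given below with and without it. WT replicate 2 at 29°C held 70.4 CPM of 8 male accessory gland genes, against 0.139 to 8.45 CPM in the other libraries, and 1325 CPM of 8 gut genes, against 73.9 to 328 CPM. The markers of neurons, glia, photoreceptors, fat body and muscle were counted in every library, and all 4 female-biased head fat genes and the male-biased roX1 were too.

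A small number of Obp genes supplied most Obp transcripts in heads. The 49 genes summed to between 8060 CPM (hypomorph replicate 2 at 29°C) and 12255 CPM (the unnumbered WT library at 18°C), or 0.787% to 1.19% of all counts. Of these, the 4 genes Obp44a, Obp19d, Obp56e and Obp99c took 66.2% to 75.1%. Obp44a, which is made by glia of the central nervous system, had a mean of 2867 CPM over the 4 groups and ranked 71 among 9553 genes. Obp19d, found in both olfactory and taste organs, had 2130.3 CPM and ranked 108, Obp56e had 1327 CPM and ranked 144, and Obp99c had 1001 CPM and ranked 171. A further 8 genes reached 100 CPM, namely Obp56g (673 CPM), Obp56d (510.4 CPM), Obp49a (353 CPM), Obp57c (292 CPM), Obp99a (232 CPM), Obp18a (209 CPM), Obp56h (147 CPM) and Obp99b (110.0 CPM). Neighbouring genes could differ widely in level, as Obp56e had a mean of 1327 CPM while the adjacent Obp56f stayed between 0.963 and 4.70 CPM.

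**Figure D1:**
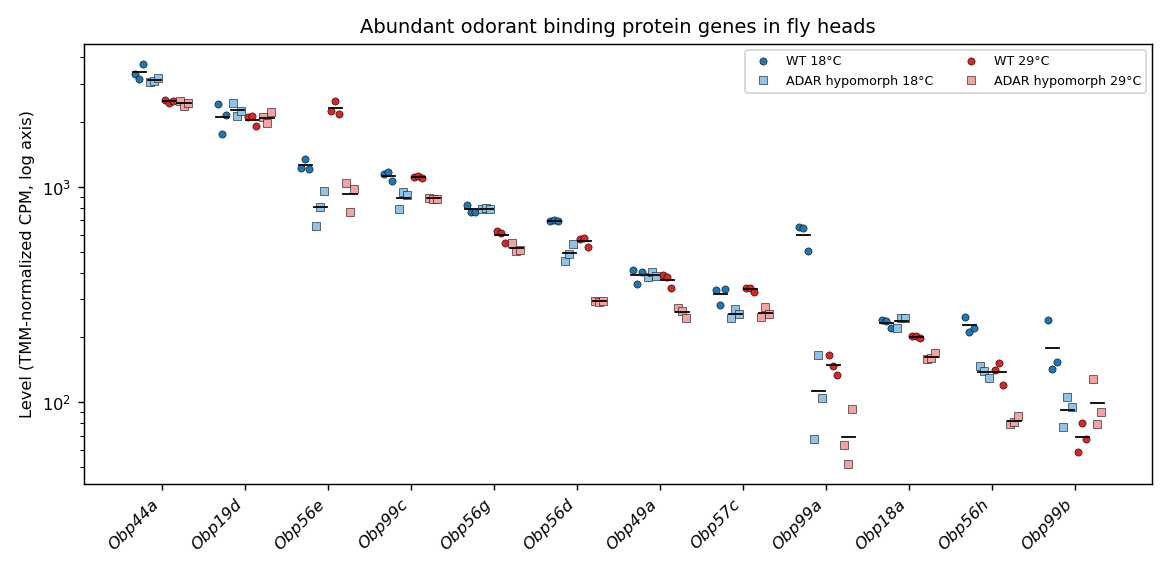
Level in CPM (log axis) of the 12 Obp genes with a mean of at least 100 CPM, 1 point for each of 12 libraries, with a short black line at each group mean. Obp19d stayed between 1757 and 2443 CPM, whereas WT at 18°C stood above the other groups for Obp99a, at 501 to 650.3 CPM.

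Another 11 genes were between 10 and 100 CPM (Obp8a, Obp19b, Obp28a, Obp56a, Obp57a, Obp57b, Obp57d, Obp83a, Obp83b, Obp83ef and Obp83g) and 12 were lower but testable (Obp19a, Obp19c, Obp47b, Obp56b, Obp56c, Obp56f, Obp59a, Obp69a, Obp73a, Obp83cd, Obp84a and Obp99d). The level classes thus ran across the sequence classes, since the 7 Minus-C genes (Obp8a, Obp44a, Obp83g and Obp99a to Obp99d) included 4 of the 12 abundant genes and summed to 3448 to 5476 CPM. The Plus-C class was nearly silent apart from Obp49a, as 9 of the 11 Plus-C genes in the table were not testable and Obp47b reached at most 10.7 CPM.

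The remaining 14 genes had too few counts to test. Of these, 10 (Obp46a, Obp47a, Obp50a, Obp50c, Obp50d, Obp56i, Obp58b, Obp58c, Obp85a and Obp93a) had at most 3 counts in every library. No read was counted for Obp56i and Obp85a among 83775534 counts, which allows a level of up to 0.0358 CPM over the 12 libraries, for counting error only. Obp50e had at most 0.549 CPM, in WT replicate 2 at 29°C. Obp57e, a taste gene with 1 coding gene between it and Obp57d in BDGP6, was at 0.439, 0.730 and 0.437 CPM in WT at 18°C and 0.626, 1.78 and 1.44 CPM in WT at 29°C, against 0.195, 0 and 0 CPM and 0.403, 0.233 and 0.555 CPM in the hypomorph. Obp22a and Obp51a encode seminal fluid proteins. Obp22a was counted only in WT replicate 2 at 29°C (1.10 CPM), and Obp51a was at 6.45 CPM there against at most 1.28 CPM in the other libraries. This is the library with the male accessory gland transcripts, and the part of those transcripts in these 2 values was not tested.

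A gene is called here when its Benjamini-Hochberg adjusted p, over 9553 genes, was under 0.05 in edgeR's quasi-likelihood test. In WT, 18 of 35 Obp genes tested differed between temperatures (6 higher and 12 lower at 29°C), against 33.4% of all genes tested (16.1% higher and 17.3% lower). In the hypomorph, 18 of 35 differed (6 higher and 12 lower), against 32.2% of all genes (15.6% higher and 16.6% lower). Of these, 14 genes were called in both strains, 77.8% of each list, and all 14 in the same direction: Obp8a, Obp19b, Obp56a, Obp57b and Obp83cd were higher at 29°C, and Obp18a, Obp44a, Obp56b, Obp56c, Obp56d, Obp56g, Obp56h, Obp57d and Obp99a were lower. The share of all genes called in both strains is not given here, so this overlap has no baseline. The median log2 fold change of the 35 genes, 29°C over 18°C, was -0.040 in WT and -0.35 in the hypomorph, where the medians of all genes were 0.0081 and -0.011. The hypomorph median includes the unnumbered library labelled hypomorph at 18°C, and the median without it is not given here. Without that library the 18 hypomorph calls were kept. Obp57e was gained, with no count in the hypomorph libraries left at 18°C.

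More Obp genes were lower than higher in the hypomorph. At 18°C, 24 of 35 differed between strains (7 higher and 17 lower in the hypomorph), against 26.2% of all genes, and at 29°C 18 of 35 did (2 higher and 16 lower), against 19% of all genes. By direction, 11.6% of all genes were called higher and 14.6% lower in the hypomorph at 18°C, and 8.81% and 10.2% at 29°C. When libraries were scaled by their total counts alone, 12 were higher and 14 lower at 18°C, a share of 46.2% higher in place of 29.2%, so that the split at 18°C depended on the scaling. The median log2 fold change of all genes at 18°C moved too, from 0.012 to 0.20, so the shift was not particular to Obp genes. The shares of all genes called under that scaling are not given here. Without the unnumbered library labelled hypomorph at 18°C, 18 of 36 testable genes were called at this temperature. Of the 24 calls 17 were kept and 7 were lost (Obp19a, Obp56b, Obp57d, Obp59a, Obp69a, Obp83a and Obp83b). Obp57e was gained as lower, with no count in the hypomorph libraries left at 18°C. The share of all genes called in this fit is not given here. In all, 14 genes were called at both temperatures, 58.3% of those at 18°C and 77.8% of those at 29°C. Of these Obp8a was higher and 13 were lower, namely Obp19b, Obp19c, Obp47b, Obp56a, Obp56b, Obp56d, Obp56e, Obp56h, Obp57a, Obp57c, Obp57d, Obp99a and Obp99c. The share of all genes called at both temperatures is not given here, so that overlap has no baseline either. Fewer cells of a type and less RNA per cell cannot be told apart in whole heads.

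**Figure D2:**
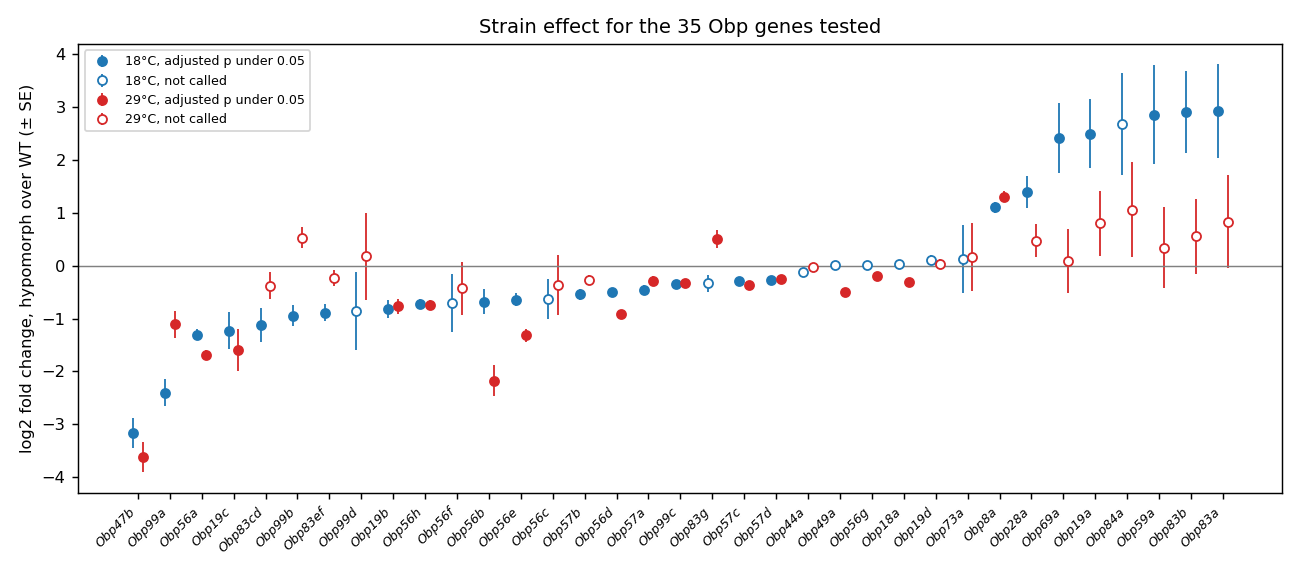
Log2 fold change of the hypomorph over WT at 18°C (blue) and 29°C (red) for each of 35 Obp genes, with standard errors as bars and filled points for adjusted p under 0.05. Obp47b lies lowest at both temperatures, Obp8a is higher at both, and the antennal genes at the right are high at 18°C with wide errors.

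Whether the temperature response itself differed between strains was tested as the difference of the temperature effects. In all, 3 of 35 genes were called, Obp99b, Obp49a and Obp56d, against 2.32% of all genes tested (1.69% with a more positive effect in the hypomorph than in WT and 0.639% with a more negative one). With a log2 fold change beyond 1 required in addition to the adjusted p, 5 genes were called for temperature in WT, 6 for temperature in the hypomorph, 12 for strain at 18°C, 7 for strain at 29°C and 1 for the difference, against 6.55%, 5.08%, 4.6%, 3.82% and 0.691% of all genes. Under the study's own criterion, which joins the same fold change with an unadjusted p, the counts were 5, 9, 13, 7 and 5, against 7.33%, 6.16%, 5.51%, 4.72% and 2.52% of all genes. The 3 genes are described with their groups below.

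Among the most abundant genes, Obp44a fell at 29°C in both strains and Obp19d was called in none of the 5 comparisons. Obp44a was at 3324, 3170.4 and 3713 CPM in WT at 18°C and 2540.1, 2446 and 2505 CPM at 29°C, and at 3066, 3109.7 and 3198 CPM and 2504, 2374 and 2452 CPM in the hypomorph. The temperatures did not overlap in either strain, with log2 fold changes of -0.45 ± 0.056 (SE, adjusted p = 2.12e-05) in WT and -0.35 ± 0.056 (SE, adjusted p = 1.76e-04) in the hypomorph. The general glial markers Eaat1, Gs2, nrv2 and repo, 4 of the 5 glial genes listed, were also lower at 29°C in both strains, and the summed glial list went from 1525 to 1646 CPM at 18°C to 1183 to 1240 CPM at 29°C in WT. Their part in the Obp44a difference was not tested. The strain effects for Obp44a were -0.12 ± 0.056 (SE, adjusted p = 0.125) at 18°C and -0.031 ± 0.056 (SE, adjusted p = 0.773) at 29°C, neither of them called. Obp44a shares sequence on the opposite strand with Pabp2 in the BDGP6 (dm6) annotation, whose own level was 12.5 to 24.4 CPM as group means.

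Obp19d was at 2416, 1757 and 2142 CPM in WT at 18°C, 2443, 2131 and 2246 CPM in the hypomorph at 18°C, 2111, 2128 and 1904 CPM in WT at 29°C and 2096, 1970.3 and 2220.1 CPM in the hypomorph at 29°C. The groups overlapped, except that the lowest hypomorph library at 18°C was just above the highest WT library at 29°C. Its temperature and strain effects lay between -0.12 and 0.11 on the log2 scale, each with a standard error of 0.093. Obp99c, a Minus-C gene, differed by strain and not by temperature. It was at 1141, 1172 and 1069 CPM in WT at 18°C and 1112, 1126 and 1100.0 CPM in WT at 29°C, above every hypomorph library (786, 943 and 920.1 CPM at 18°C and 889.7, 875 and 882 CPM at 29°C). The strain effects were -0.35 ± 0.064 (SE, adjusted p = 6.78e-04) at 18°C and -0.33 ± 0.064 (SE, adjusted p = 0.00129) at 29°C, while the temperature effects of -0.019 and -0.0015 had standard errors of 0.064. The call at 18°C was lost in 1 of 21 alternative fits (adjusted p up to 0.054). Obp18a was lower at 29°C in both strains. It went from 241, 237 and 221 CPM to 203, 204 and 198 CPM in WT (-0.21 ± 0.062 (SE, adjusted p = 0.0166)) and from 221, 245 and 245 CPM to 159, 161 and 169 CPM in the hypomorph (-0.54 ± 0.062 (SE, adjusted p = 7.76e-06)). The WT call was lost in 5 of 21 alternative fits (adjusted p up to 0.108). These included the fits without the unnumbered WT library at 18°C, WT replicate 2 at 18°C or WT replicate 3 at 29°C (up to 0.0601). Strains overlapped at 18°C (0.027, not called) and were apart at 29°C (-0.31 ± 0.062 (SE, adjusted p = 0.00195)). The difference of the Obp18a temperature effects was not called in edgeR with all libraries, whereas DESeq2 called it. Without the unnumbered library labelled hypomorph at 18°C it was called in edgeR, at -0.38 ± 0.079 (SE, adjusted p = 0.0238).

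The Obp99a and Obp99b genes showed the widest changes among the abundant genes. Obp99a was at 650.3, 645 and 501 CPM in WT at 18°C and 165, 148 and 134 CPM in WT at 29°C, so that the mean at 29°C was 24.9% of that at 18°C (-2.01 ± 0.25 (SE, adjusted p = 1.70e-05)). In the hypomorph it was already low at 18°C, with 67.4, 165 and 105 CPM, and was at 63.0, 51.5 and 92.7 CPM at 29°C. These hypomorph groups overlapped (-0.71 ± 0.25 (SE, adjusted p = 0.0388)), and the call was lost in 11 of 21 alternative fits, 8 of them with 1 library left out (adjusted p up to 0.291). The strain effects on Obp99a were -2.40 ± 0.25 (SE, adjusted p = 4.09e-06) at 18°C, where every hypomorph library was under every WT library, and -1.11 ± 0.25 (SE, adjusted p = 0.00454) at 29°C. The call at 29°C was lost in 1 of 21 alternative fits (adjusted p up to 0.0537). The difference of its temperature effects, 1.29 ± 0.35 (SE, adjusted p = 0.0667), did not pass the threshold.

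Obp99b is the gene also known as turn on sex-specificity (tsx), which is expressed in the fat body of male heads. It was at 241, 142 and 154 CPM in WT at 18°C and 59.0, 80.2 and 67.5 CPM in WT at 29°C, and at 76.5, 106 and 94.9 CPM and 128, 79.4 and 90.5 CPM in the hypomorph. The WT temperatures were apart (-1.37 ± 0.20 (SE, adjusted p = 8.42e-05)) and the hypomorph temperatures overlapped (0.098 ± 0.20 (SE, adjusted p = 0.743)), and the difference between these effects was called, at 1.47 ± 0.28 (SE, adjusted p = 0.00945). This call was lost in 2 of 20 alternative fits (adjusted p up to 0.102). WT exceeded the hypomorph at 18°C (-0.95 ± 0.20 (SE, adjusted p = 0.00217)), and at 29°C the effect was in the other direction without passing the threshold (0.53 ± 0.20 (SE, adjusted p = 0.0825)). Obp99d stayed between 0 and 4.37 CPM with no call.

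Other genes of head fat also changed, not all in the directions of Obp99a and Obp99b. Of 7 fat body genes 6 were called lower in the hypomorph at 18°C, and their summed level was 6585 to 7192 CPM in WT at 18°C against 3513 to 4017 CPM in the hypomorph. At 29°C 3 of the 7 (Desat1, FASN1 and Rfabg) were lower in the hypomorph and to was higher. With temperature, 5 were lower and Lsp1beta was higher at 29°C in WT, and in the hypomorph 3 (FASN1, Lsp1beta and Lsp2) were higher and 2 lower. The 4 female-biased head fat genes (the yolk proteins Yp1, Yp2 and Yp3, and fit) were all lower in the hypomorph at both temperatures. At 29°C Yp2, Yp3 and fit were lower in WT, whereas Yp1, Yp2 and Yp3 were higher in the hypomorph, in which Obp99a was called lower and Obp99b was not called. Chosen after its values were seen, the gene fit, female-specific independent of transformer, was at 1437, 1387 and 1051 CPM in WT at 18°C and 427, 421 and 369.7 CPM in WT at 29°C, and at 149.9, 223 and 174 CPM and 154, 183 and 174 CPM in the hypomorph. Its difference of temperature effects was 1.57 ± 0.19 (SE, adjusted p = 2.06e-04). Among the 5 male-biased genes, sxe2 was lower in the hypomorph at both temperatures and Cyp4d21 (sxe1) at 29°C, whereas roX2 was higher at both temperatures, roX1 at 18°C and to at 29°C. The part of fat content or of the sex ratio in the Obp99a and Obp99b differences was not tested.

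**Figure D3:**
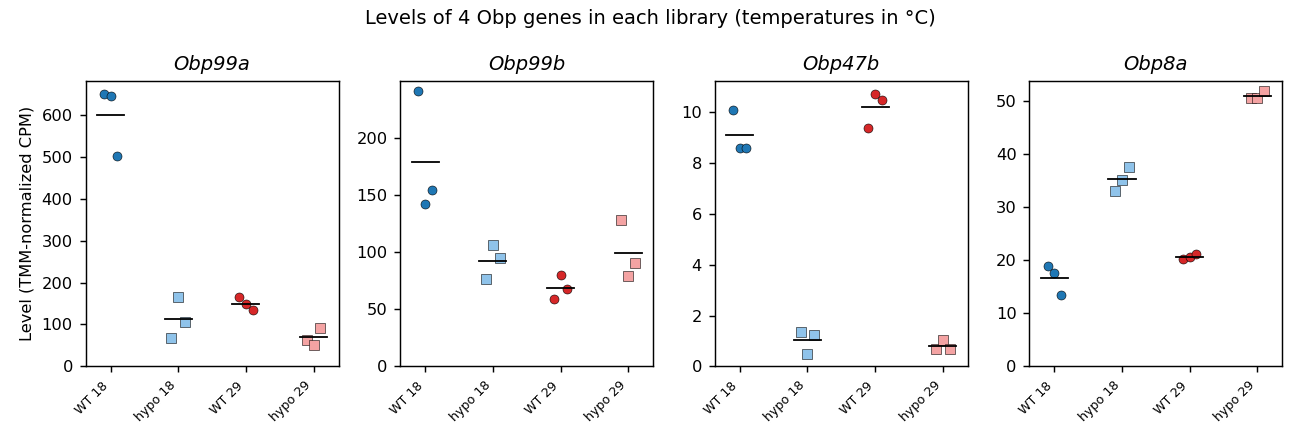
Level in CPM (axis from 0) of Obp99a, Obp99b, Obp47b and Obp8a in 12 libraries, circles for WT and squares for the hypomorph, with a line at each group mean. For Obp47b all 6 WT libraries were at 8.58 CPM or more and all 6 hypomorph libraries at 1.37 CPM or less, and for Obp8a every hypomorph library was above every WT library.

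The Obp56 genes form a cluster on 2R in which Obp56a to Obp56f follow each other with no other coding gene between them in BDGP6, and Obp56g and Obp56h are adjacent further along. Neighbours in it differed in the direction of the temperature response. Obp56a rose at 29°C, from 83.2, 88.7 and 72.7 CPM to 157, 163 and 144 CPM in WT (0.92 ± 0.096 (SE, adjusted p = 3.09e-06)) and from 28.3, 35.8 and 34.0 CPM to 47.4, 44.9 and 52.2 CPM in the hypomorph (0.55 ± 0.10 (SE, adjusted p = 6.59e-04)). Obp56e rose in WT from 1227, 1348 and 1211 CPM to 2252, 2504 and 2179 CPM (0.87 ± 0.12 (SE, adjusted p = 5.42e-05)), a gain to 183% of the 18°C mean. In the hypomorph Obp56e was at 654, 808 and 953 CPM and 1045, 764 and 979 CPM with overlapping temperatures (0.21 ± 0.12 (SE, adjusted p = 0.213)). The difference of the Obp56e effects was -0.67 ± 0.17 (SE, adjusted p = 0.0562), just short of the threshold, and without the unnumbered library labelled hypomorph at 18°C it was -0.79 ± 0.15 (SE, adjusted p = 0.0142).

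Of the other 6 tested genes of the cluster, 5 fell at 29°C in both strains, and Obp56f had effects of 0.10 in WT and 0.38 in the hypomorph, neither called. Obp56h, whose knockdown in males is known to alter mating behaviour and cuticular pheromones, went from 249, 213 and 222 CPM to 141, 151 and 119.7 CPM in WT (-0.73 ± 0.088 (SE, adjusted p = 1.34e-05)) and from 147, 140.2 and 129 CPM to 79.3, 81.1 and 86.2 CPM in the hypomorph (-0.75 ± 0.089 (SE, adjusted p = 1.12e-05)). Obp56d went from 695, 702 and 692 CPM to 571, 577 and 523 CPM in WT (-0.32 ± 0.064 (SE, adjusted p = 0.00114)) and from 455, 485 and 542 CPM to 296, 293 and 294 CPM in the hypomorph (-0.75 ± 0.065 (SE, adjusted p = 5.42e-07)). The fall of Obp56d was larger in the hypomorph, with a difference of -0.43 ± 0.091 (SE, adjusted p = 0.0181). That call was lost in 7 of 20 alternative fits (adjusted p up to 0.117), 5 of them with 1 library left out (up to 0.0585). Obp56g, found in taste organs and in the male ejaculatory bulb, went from 825, 763 and 766 CPM to 626, 608 and 550.2 CPM in WT (-0.40 ± 0.059 (SE, adjusted p = 9.85e-05)) and from 787, 797 and 790.2 CPM to 546, 505 and 511 CPM in the hypomorph (-0.60 ± 0.060 (SE, adjusted p = 1.95e-06)). Temperatures did not overlap in either strain for Obp56d, Obp56g and Obp56h.

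The low members Obp56b and Obp56c also fell. Obp56b was at 13.6, 14.8 and 19.9 CPM and 11.1, 11.5 and 7.83 CPM in WT and at 8.98, 10.8 and 10.3 CPM and 0.940, 3.02 and 2.64 CPM in the hypomorph, where the fall was -2.17 ± 0.29 (SE, adjusted p = 3.63e-05). In WT the effect was -0.69 ± 0.24 (SE, adjusted p = 0.035), and this call was lost in 5 of 20 alternative fits, among them those without WT replicate 2 at 18°C, WT replicate 3 at 18°C, the unnumbered WT library at 29°C or WT replicate 3 at 29°C (adjusted p up to 0.188). The difference of -1.49 ± 0.38 (SE, adjusted p = 0.0536) did not pass the threshold. Obp56c was at 3.51, 5.48 and 3.64 CPM and 1.41, 0.686 and 0.361 CPM in WT (-2.40 ± 0.45 (SE, adjusted p = 6.87e-04)) and at 2.54, 2.99 and 2.58 CPM and 0.269, 0.581 and 0.972 CPM in the hypomorph (-2.14 ± 0.47 (SE, adjusted p = 0.00271)). The libraries at 29°C rest on few counts for this gene, and they lay under every 18°C library in both strains.

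Of the 8 Obp56 genes tested, 5 were called lower in the hypomorph at 18°C and 6 at 29°C, against 14.6% and 10.2% of all genes. None was called higher, against 11.6% and 8.81% of all genes. The largest strain effect among the abundant Obp56 genes was that of Obp56e at 29°C, -1.31 ± 0.12 (SE, adjusted p = 1.31e-06), with -0.65 ± 0.12 (SE, adjusted p = 9.04e-04) at 18°C. For Obp56a the effects were -1.31 ± 0.10 (SE, adjusted p = 1.30e-07) at 18°C and -1.68 ± 0.098 (SE, adjusted p = 6.56e-09) at 29°C, and the hypomorph libraries at 29°C did not reach the lowest WT library at 18°C. Obp56d differed by -0.50 ± 0.064 (SE, adjusted p = 3.13e-05) at 18°C and -0.92 ± 0.065 (SE, adjusted p = 5.85e-08) at 29°C, and Obp56h by -0.72 ± 0.088 (SE, adjusted p = 1.84e-05) and -0.74 ± 0.089 (SE, adjusted p = 1.97e-05). Obp56b differed by -0.69 ± 0.24 (SE, adjusted p = 0.0431) at 18°C and by -2.17 ± 0.29 (SE, adjusted p = 5.35e-05) at 29°C. Its call at 18°C was lost in 10 of 20 alternative fits (adjusted p up to 0.526), 7 of them with 1 library left out (up to 0.207). Obp56g did not differ at 18°C beyond its error (0.012) and was lower at 29°C (-0.19 ± 0.059 (SE, adjusted p = 0.0329)). The Obp56g call was lost in 8 of 21 alternative fits, among them those without the unnumbered WT library at 29°C, WT replicate 2 at 29°C, hypomorph replicate 2 at 29°C or hypomorph replicate 3 at 29°C (adjusted p up to 0.15). The summed level of the cluster was 3525 to 4020 CPM in WT and 1694 to 2019 CPM in the hypomorph at 29°C. Obp56f, a seminal fluid gene elsewhere in the body, had no call.

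**Figure D4:**
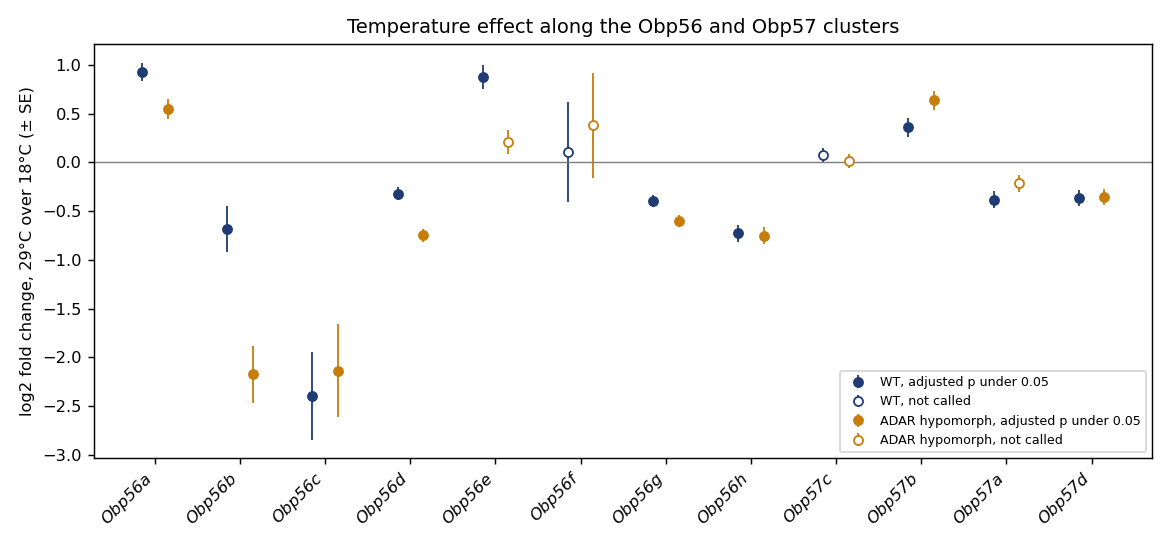
Log2 fold change of 29°C over 18°C in WT (blue) and in the hypomorph (orange) for the tested genes of the Obp56 and Obp57 clusters, with standard errors as bars and filled points for adjusted p under 0.05. Obp56a and Obp57b are above 0 in both strains, and Obp56b, Obp56c, Obp56d, Obp56g, Obp56h and Obp57d are below 0 in both.

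In the Obp57 group the changes were smaller. Obp57b rose at 29°C, from 48.7, 49.5 and 58.4 CPM to 67.1, 70.4 and 63.9 CPM in WT (0.36 ± 0.095 (SE, adjusted p = 0.00864)) and from 33.4, 40.7 and 33.3 CPM to 59.2, 53.0 and 55.2 CPM in the hypomorph (0.64 ± 0.097 (SE, adjusted p = 1.19e-04)). Its neighbour Obp57a was lower at 29°C in WT, from 56.6, 45.6 and 47.6 CPM to 37.6, 38.7 and 38.2 CPM (-0.39 ± 0.087 (SE, adjusted p = 0.003)), and in the hypomorph went from 36.7, 37.8 and 34.6 CPM to 32.6, 30.0 and 31.4 CPM (-0.22 ± 0.088 (SE, adjusted p = 0.0744), not called). The other neighbour of Obp57b, Obp57c, had temperature effects of 0.077 in WT and 0.014 in the hypomorph, with no call. Obp57c was at 331, 284 and 336 CPM and 338, 339 and 326 CPM in WT and at 246, 272 and 256 CPM and 249, 277 and 256 CPM in the hypomorph, with strain effects of -0.30 ± 0.072 (SE, adjusted p = 0.00581) at 18°C and -0.36 ± 0.071 (SE, adjusted p = 0.00178) at 29°C. The calls for Obp57a and Obp57b in WT were lost in the numbered libraries alone, with and without a replicate block (0.0607 and 0.111 at most, as adjusted p). For strain, the Obp57c call at 18°C was lost in 4 of 21 alternative fits (adjusted p up to 0.24). At 29°C it was lost in 1 of 21 alternative fits (adjusted p up to 0.0597).

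Obp57d, which shapes the response to the fatty acids of noni fruit and is made in taste hairs, was at 122, 112 and 113 CPM and 92.3, 91.1 and 85.5 CPM in WT (-0.37 ± 0.082 (SE, adjusted p = 0.00254)) and at 91.6, 94.3 and 101 CPM and 83.0, 66.3 and 75.9 CPM in the hypomorph (-0.35 ± 0.082 (SE, adjusted p = 0.00388)). Temperatures did not overlap in either strain. Its strain effects of -0.27 ± 0.082 (SE, adjusted p = 0.0208) at 18°C and -0.26 ± 0.082 (SE, adjusted p = 0.0393) at 29°C were called. The first was lost in 7 of 21 alternative fits (adjusted p up to 0.444). These included fits without the unnumbered WT library, the unnumbered library labelled hypomorph or hypomorph replicate 2, all at 18°C (up to 0.0823). The second was lost in 11 of 21 alternative fits, 6 of them with 1 library left out (adjusted p up to 0.199). Obp57d overlaps Cpr57A on the same strand in BDGP6, so reads of these genes may not have been told apart. Obp57a and Obp57b were also lower in the hypomorph at 18°C (-0.45 ± 0.088 (SE, adjusted p = 0.00114) and -0.54 ± 0.098 (SE, adjusted p = 6.58e-04)), and Obp57a at 29°C (-0.28 ± 0.088 (SE, adjusted p = 0.0325)), where Obp57b gave -0.27 ± 0.094 (SE, adjusted p = 0.0605). The Obp57a call at 29°C was lost in 10 of 21 alternative fits, 6 of them with 1 library left out (adjusted p up to 0.115). The Obp57b call at 18°C was lost in 1 of 21 alternative fits (adjusted p up to 0.0524).

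Among genes known from taste organs, Obp49a and Obp19b had contrasting responses. Obp49a, a Plus-C protein by which bitter compounds suppress sweet taste, was at 412, 355 and 401 CPM in WT at 18°C, 390.2, 379 and 339.9 CPM in WT at 29°C and 383, 401 and 387 CPM in the hypomorph at 18°C, and these 3 groups overlapped. In the hypomorph at 29°C it was at 275, 266 and 246 CPM, below every other library. The temperature effects were -0.074 ± 0.071 (SE, adjusted p = 0.462) in WT and -0.57 ± 0.072 (SE, adjusted p = 1.83e-05) in the hypomorph, and the difference between them was -0.50 ± 0.10 (SE, adjusted p = 0.0131). This call was lost in 3 of 20 alternative fits (adjusted p up to 0.105). The strain effect was -0.50 ± 0.072 (SE, adjusted p = 1.08e-04) at 29°C and 0.0043 at 18°C.

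Obp19b, which is needed to taste certain amino acids, rose at 29°C by nearly the same amount in both strains. It went from 25.2, 16.6 and 17.3 CPM to 57.1, 54.9 and 49.2 CPM in WT (1.46 ± 0.15 (SE, adjusted p = 2.15e-06)) and from 13.5, 10.9 and 9.22 CPM to 33.3, 29.3 and 31.9 CPM in the hypomorph (1.51 ± 0.15 (SE, adjusted p = 2.71e-06)). The difference was 0.050, with a standard error of 0.21. It was lower in the hypomorph at both temperatures, by -0.82 ± 0.16 (SE, adjusted p = 0.00147) at 18°C and -0.77 ± 0.14 (SE, adjusted p = 7.04e-04) at 29°C. The adjacent Obp19c moved the other way with temperature. It was at 9.43, 9.13 and 7.14 CPM and 6.10, 3.43 and 4.33 CPM in WT (-0.89 ± 0.33 (SE, adjusted p = 0.0526), not called) and at 1.56, 3.11 and 5.77 CPM and 1.34, 1.28 and 1.94 CPM in the hypomorph (-1.25 ± 0.41 (SE, adjusted p = 0.0275)), where the groups overlapped. It was also lower in the hypomorph, by -1.23 ± 0.34 (SE, adjusted p = 0.0147) at 18°C and -1.59 ± 0.40 (SE, adjusted p = 0.00914) at 29°C. The Obp19c temperature call was lost in 3 of 20 alternative fits, among them those without hypomorph replicate 3 at 18°C, the unnumbered hypomorph library at 29°C or hypomorph replicate 2 at 29°C (adjusted p up to 0.229). Its strain call at 18°C was lost in 6 of 20 alternative fits (adjusted p up to 0.243). These included the fits without the unnumbered WT library, WT replicate 2 or hypomorph replicate 2 at 18°C (up to 0.0604). At 29°C the strain call was lost in 2 of 20 alternative fits (adjusted p up to 0.0899). The defining receptor genes of taste neurons were near the limit of counting, as 5 of 6 were too low to test, and the sixth, the bitter receptor gene Gr66a, was lower in the hypomorph by -1.55 ± 0.42 (SE, adjusted p = 0.0113) at 18°C and -1.33 ± 0.43 (SE, adjusted p = 0.0425) at 29°C.

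The Obps best known from the antenna had means under 100 CPM and varied from library to library. Obp83a and Obp83b (also called OS-F and OS-E), Obp19a, Obp28a, Obp69a and Obp84a are made in olfactory hairs of the antenna, and Obp59a in hairs that sense humidity. Together they summed to 71.1, 33.2 and 15.9 CPM in WT at 18°C, 343, 66.1 and 133 CPM in the hypomorph at 18°C, 33.5, 48.3 and 48.5 CPM in WT at 29°C and 77.6, 41.0 and 78.1 CPM in the hypomorph at 29°C. The unnumbered library labelled hypomorph at 18°C was thus far above all others. Within WT at 18°C, Obp83a was at 21.5, 2.19 and 0 CPM, and Obp59a, Obp83a and Obp84a each had no count in at least 1 library. Over all genes tested with a count in each library, the median ratio of the highest to the lowest library of that group was 1.25, and it was 12.5 for Obp83b and 10.2 for Obp19a.

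Several other antennal genes followed the same libraries, and others did not. The gene a10, which encodes an abundant antennal chemosensory protein, was at 14.0, 0 and 1.46 CPM in WT at 18°C, 98.2, 12.6 and 36.0 CPM in the hypomorph at 18°C, 6.57, 15.2 and 16.1 CPM in WT at 29°C and 24.4, 13.4 and 22.5 CPM in the hypomorph at 29°C. Os-C, a marker of olfactory segments, was at 6.58, 0 and 0.291 CPM in WT at 18°C and 48.0, 6.72 and 12.04 CPM in the hypomorph at 18°C, and Orco, the coreceptor of odorant receptors, at 2.85, 0 and 1.60 CPM and 6.05, 2.36 and 3.93 CPM. Over 10 antennal marker genes with no Obp among them, the summed level was 11.5 to 43.0 CPM in WT at 18°C, 33.8 to 184 CPM in the hypomorph at 18°C, 27.5 to 44.6 CPM in WT at 29°C and 37.3 to 66.1 CPM in the hypomorph at 29°C. WT replicates 2 and 3 at 18°C were thus lowest and the unnumbered library labelled hypomorph at 18°C highest, for Obps and markers alike. Of the 10 markers, Snmp1 and Ir25a varied less (4.997 to 10.9 CPM and 2.74 to 8.33 CPM over the 12 libraries), and 4 receptor genes (Ir8a, Or42b, Or67d and Or47b) were at or near 0. Outside this list, lush was highest in WT replicate 3 at 18°C. It was at 4.61, 4.38 and 12.4 CPM in WT at 18°C and 9.57, 3.48 and 2.09 CPM in the hypomorph at 18°C. Ir76b was at 4.39, 3.65 and 3.93 CPM and 3.51, 1.99 and 1.97 CPM in these groups.

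**Figure D5:**
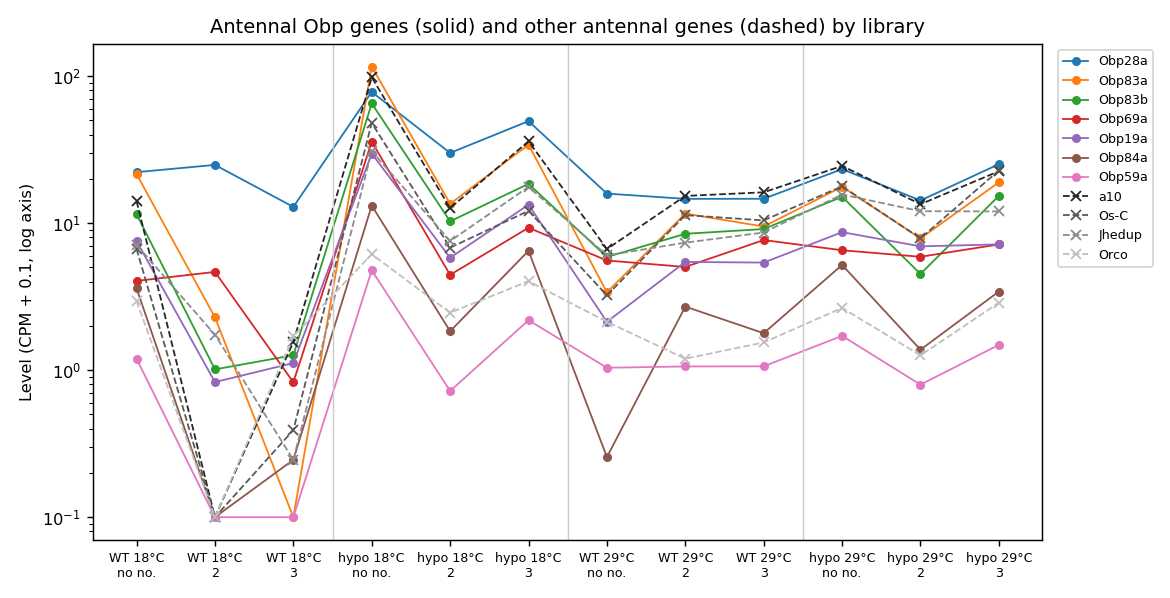
Level in CPM plus 0.1 (log axis) of 7 antennal Obp genes (solid lines) and of a10, Os-C, Jhedup and Orco (dashed lines) in 12 libraries, joined only to guide the eye, with libraries named by group and replicate (no no., unnumbered). Apart from Obp28a, Obp69a in replicate 2 and Orco in replicate 3, Obps and markers are low together in WT replicates 2 and 3 at 18°C, and all are high together in the unnumbered library labelled hypomorph at 18°C.

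Of the 7 antennal genes, 6 were called higher in the hypomorph at 18°C. Obp83a was at 116, 13.4 and 34.2 CPM there (2.92 ± 0.89 (SE, adjusted p = 0.0233)), Obp83b at 11.4, 0.913 and 1.16 CPM in WT and 65.2, 10.2 and 18.4 CPM in the hypomorph (2.90 ± 0.77 (SE, adjusted p = 0.0112)), and Obp28a at 22.2, 24.8 and 12.8 CPM and 78.1, 30.0 and 49.4 CPM (1.40 ± 0.30 (SE, adjusted p = 0.00264)). For Obp83a and Obp83b the strains overlapped, and for Obp28a they did not. Obp19a was at 7.46, 0.730 and 1.02 CPM and 29.7, 5.72 and 13.3 CPM (2.49 ± 0.65 (SE, adjusted p = 0.01)), Obp69a, which tunes social responses to cis-vaccenyl acetate, at 3.95, 4.56 and 0.728 CPM and 35.7, 4.35 and 9.22 CPM (2.41 ± 0.66 (SE, adjusted p = 0.0132)), and Obp59a at 1.10, 0 and 0 CPM and 4.69, 0.622 and 2.09 CPM (2.86 ± 0.93 (SE, adjusted p = 0.033)). The strains overlapped for these 3 genes. Obp84a, between 0 and 13.1 CPM over the 12 libraries, just missed the threshold (2.67 ± 0.96 (SE, adjusted p = 0.053)).

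These calls depended on the libraries used. Without the unnumbered library labelled hypomorph at 18°C, Obp28a kept its call (1.00 ± 0.27 (SE, adjusted p = 0.0181)) and the other 5 lost it, with Obp83a at 1.73 ± 0.88 (SE, adjusted p = 0.201) and Obp69a at 1.20 ± 0.48 (SE, adjusted p = 0.102). Obp19a, Obp59a, Obp83a and Obp83b also lost it without WT replicate 2 or WT replicate 3 at 18°C, and Obp69a without WT replicate 3, although leaving out the unnumbered WT library at 18°C made the effect on Obp83a larger, at up to 5.73. In the 8 numbered libraries alone, without any unnumbered library, Obp19a (3.395 ± 0.48 (SE, adjusted p = 0.00133)), Obp59a (6.36 ± 1.55 (SE, adjusted p = 0.0237)), Obp83a (4.57 ± 0.83 (SE, adjusted p = 0.0048)) and Obp83b (3.75 ± 0.66 (SE, adjusted p = 0.00381)) kept their calls with larger effects. Obp84a gained one (5.39 ± 1.15 (SE, adjusted p = 0.0107)), while Obp28a (1.09 ± 0.34 (SE, adjusted p = 0.0539)) and Obp69a (1.43 ± 0.62 (SE, adjusted p = 0.153)) were not called. In WT replicates 2 and 3 at 18°C, Obp19a had 4 and 7 counts, Obp59a 0 and 0, Obp83a 12 and 0, Obp83b 5 and 8, and Obp84a 0 and 1. With so few counts the sizes of these 5 effects are poorly determined. With the summed antennal markers as a covariate, a fit chosen after seeing the data, none of the 7 was called, and the effect was 0.54 ± 0.33 (SE, adjusted p = 0.348) for Obp28a and 0.11 ± 0.52 (SE, adjusted p = 0.934) for Obp83a. The markers include a10 and Os-C, themselves called between strains at 18°C, so this fit cannot separate marker level from strain. It also took the strain calls of all Obp genes at 18°C from 24 to 11, with Obp57c and Obp99c among those lost. At 29°C, Obp83a was at 3.29, 11.5 and 9.39 CPM in WT and 17.6, 7.79 and 18.9 CPM in the hypomorph, Obp83b at 5.79, 8.37 and 9.03 CPM and 15.0, 4.42 and 15.3 CPM, and Obp19a at 2.03, 5.35 and 5.30 CPM and 8.60, 6.86 and 7.08 CPM. Obp69a was at 5.48, 4.94 and 7.58 CPM and 6.45, 5.81 and 7.08 CPM, and Obp59a at 0.939, 0.961 and 0.963 CPM and 1.61, 0.698 and 1.39 CPM. None of the 7 genes was called between strains at 29°C.

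With temperature, 1 of the 7 was called with all 12 libraries in the fit, since Obp28a went from 78.1, 30.0 and 49.4 CPM to 23.2, 14.2 and 25.1 CPM in the hypomorph (-1.32 ± 0.29 (SE, adjusted p = 0.00257)), and in WT it was at 15.8, 14.6 and 14.6 CPM at 29°C (-0.40, not called). The hypomorph call of Obp28a was lost in 2 of 21 alternative fits (adjusted p up to 0.0535). Without the unnumbered library labelled hypomorph at 18°C, the hypomorph temperature effects of the 7 genes were -0.94 to -0.079. With all libraries their median was -1.28. In the numbered libraries alone, with or without a replicate block, 5 antennal genes were called higher at 29°C in WT, and Obp28a was not called. Without the block the effects were 2.56 ± 0.51 (SE, adjusted p = 0.00548) for Obp19a, 5.87 ± 1.65 (SE, adjusted p = 0.0303) for Obp59a and 3.38 ± 0.90 (SE, adjusted p = 0.0211) for Obp83a. For Obp83b the effect was 3.03 ± 0.69 (SE, adjusted p = 0.0102) and for Obp84a 4.47 ± 1.24 (SE, adjusted p = 0.0261). The sizes of these 5 effects rest on the same few counts in WT replicates 2 and 3 at 18°C. Leaving out the unnumbered WT library at 18°C by itself moved the WT effect of Obp83a from 0.22 to 3.04 ± 1.32 (SE, adjusted p = 0.104). That of Obp19a went from 0.63 to 2.25 ± 0.83 (SE, adjusted p = 0.0567), and Obp59a was called (5.80 ± 1.77 (SE, adjusted p = 0.0268)). This library had the highest antennal sum of WT at 18°C, and without it Obp59a had no count in WT at 18°C.

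Obp8a and Obp47b separated the strains completely, as Obp56a, Obp56e, Obp57c and Obp99c also did. At each temperature the strains did not overlap for 20 of 35 Obp genes. The shares of all genes tested were 38.3% at 18°C and 35.9% at 29°C. Obp8a, a Minus-C gene on X, was at 18.9, 17.5 and 13.4 CPM in WT and 33.0, 35.1 and 37.5 CPM in the hypomorph at 18°C, and at 20.2, 20.6 and 21.2 CPM and 50.5, 50.5 and 51.8 CPM at 29°C. It was higher in the hypomorph by 1.10 ± 0.11 (SE, adjusted p = 2.54e-06) at 18°C and 1.30 ± 0.10 (SE, adjusted p = 2.06e-07) at 29°C. It also rose at 29°C in the hypomorph (0.53 ± 0.099 (SE, adjusted p = 7.53e-04)) and by less in WT (0.33 ± 0.11 (SE, adjusted p = 0.0357)). The Obp8a call in WT was lost in 9 of 21 alternative fits, among them those without WT replicate 3 at 18°C, the unnumbered WT library at 29°C, WT replicate 2 at 29°C or WT replicate 3 at 29°C (adjusted p up to 0.26). Obp47b, a Plus-C gene on 2R, went the other way. It was at 10.1, 8.58 and 8.59 CPM in WT and 1.37, 0.498 and 1.23 CPM in the hypomorph at 18°C, and at 9.39, 10.7 and 10.5 CPM and 0.672, 1.05 and 0.694 CPM at 29°C. The hypomorph means were 11.3% and 7.89% of the WT means, with effects of -3.16 ± 0.29 (SE, adjusted p = 8.58e-07) and -3.62 ± 0.28 (SE, adjusted p = 1.86e-07), and temperature had no called effect in either strain. The unnumbered library labelled hypomorph at 18°C, at 1.37 CPM, stood with the other hypomorph libraries. CG7741, which overlaps Obp47b on the opposite strand in BDGP6, was at group means of 6.13 and 5.90 CPM at 18°C and 4.95 and 4.43 CPM at 29°C in WT and hypomorph.

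The 3 neighbouring genes Obp83cd, Obp83ef and Obp83g on 3R had means of 7.02, 13.3 and 14.9 CPM. Obp83cd and Obp83ef encode dimer Obps and overlap on opposite strands, so that without strand their reads cannot be told apart. The study describes a stranded library preparation, similar for the 3' libraries, and does not state whether the counting used strand. The other members with an annotated gene on the opposite strand are Obp44a, Obp47b, Obp56e, Obp59a, Obp69a, Obp84a, Obp93a and Obp99c. Obp83cd was at 3.95, 7.12 and 7.57 CPM and 9.55, 13.0 and 9.87 CPM in WT and at 1.17, 3.36 and 3.69 CPM and 9.67, 7.79 and 7.50 CPM in the hypomorph. It rose at 29°C by 1.52 ± 0.30 (SE, adjusted p = 0.00118) in the hypomorph and by 0.77 ± 0.27 (SE, adjusted p = 0.041) in WT. The Obp83cd call in WT was lost in 12 of 20 alternative fits, 9 of them with 1 library left out (adjusted p up to 0.16). Obp83ef was at 14.0, 16.3 and 14.1 CPM and 16.7, 13.7 and 18.9 CPM in WT (0.15, not called) and rose from 9.57, 7.59 and 7.13 CPM to 15.0, 12.9 and 14.2 CPM in the hypomorph (0.81 ± 0.16 (SE, adjusted p = 0.00104)). Both were lower in the hypomorph at 18°C, by -1.13 ± 0.32 (SE, adjusted p = 0.016) for Obp83cd and -0.89 ± 0.16 (SE, adjusted p = 6.90e-04) for Obp83ef, and had no call between strains at 29°C. The Obp83cd call at 18°C was lost in 3 of 20 alternative fits (adjusted p up to 0.48). These included the fits without WT replicate 2 or WT replicate 3 at 18°C (up to 0.081).

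Obp83g, a Minus-C gene, fell at 29°C in WT from 17.8, 20.8 and 21.1 CPM to 8.92, 10.4 and 10.1 CPM (-1.02 ± 0.17 (SE, adjusted p = 2.11e-04)), to 49.4% of the mean at 18°C. In the hypomorph it was at 15.2, 13.7 and 18.4 CPM and 16.8, 14.0 and 11.1 CPM with overlapping temperatures (-0.18, not called). It was higher in the hypomorph at 29°C by 0.50 ± 0.17 (SE, adjusted p = 0.0451). That call was lost in 13 of 21 alternative fits (adjusted p up to 0.411), 8 of them with 1 library left out (up to 0.206). The difference of temperature effects of 0.84 ± 0.23 (SE, adjusted p = 0.0732) was not called. Obp73a, which shares its strand and part of its sequence with the far more abundant Ogdh in BDGP6, was between 0.183 and 2.18 CPM with no call, as was Obp99d.

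Of 26 other genes of odour detection listed with the Obps, 25 were in the table and 13 could be tested. In WT 2 were higher and none lower at 29°C, and in the hypomorph 2 were higher and 1 was lower. Est-6, an esterase of the antenna and other tissues that degrades food odours and pheromone, went from 231, 218 and 192 CPM to 561, 552 and 531 CPM in WT (1.36 ± 0.082 (SE, adjusted p = 1.11e-08)) and from 216, 203 and 193 CPM to 398, 385 and 463 CPM in the hypomorph (1.03 ± 0.081 (SE, adjusted p = 2.09e-07)). Phk-3, a chemosensory protein, went from 63.2, 75.4 and 60.1 CPM to 81.9, 87.2 and 81.0 CPM in WT (0.33 ± 0.084 (SE, adjusted p = 0.00651)) and from 42.6, 38.4 and 42.9 CPM to 76.0, 74.7 and 74.7 CPM in the hypomorph (0.86 ± 0.086 (SE, adjusted p = 2.03e-06)), with a called difference of 0.53 ± 0.12 (SE, adjusted p = 0.0257). Temperatures did not overlap for either gene. Snmp1, a membrane protein needed to sense pheromone, was lower at 29°C in the hypomorph (-0.54 ± 0.19 (SE, adjusted p = 0.0414)).

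Between strains at 18°C, a10, Os-C, a5 and the odorant-degrading esterase Jhedup were higher and Phk-3 was lower in the hypomorph (-0.68 ± 0.087 (SE, adjusted p = 2.70e-05)). The first 4 are the genes that varied with the antennal Obps, with effects of 3.37 ± 0.82 (SE, adjusted p = 0.00605) for a10 and 3.43 ± 0.93 (SE, adjusted p = 0.0126) for Os-C. At 29°C, Est-6 (-0.40 ± 0.080 (SE, adjusted p = 0.00179)) and Snmp2 (-0.67 ± 0.16 (SE, adjusted p = 0.00673)) were lower in the hypomorph. The gene lush was between 1.65 and 12.4 CPM with no call, and the 12 genes in the table that could not be tested were all receptor genes of the Or and Ir families, at means of 0.01 to 0.46 CPM over the libraries.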

How the data were processed

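The 49 Obp genes and the gene lists used here were chosen with earlier results of these data known, and the groupings of Obp genes by organ, class and cluster were drawn up after their values were seen, so they are described and not tested. The authors aligned reads to dm3 with TopHat (version not given in the sources used here) and deposited whole-number counts per gene made with ESAT, not normalized, in 1 table. Of its columns, 12 were used and 4 columns of values for another temperature were not used. In each of 4 groups, 1 column without replicate number was taken as an unnumbered replicate. Counts of 9553 genes that passed filterByExpr (minimum count 10) were fitted in edgeR 4.0.16 (R 4.3.3) with TMM scaling, 1 mean per group and glmQLFTest. P-values were adjusted over all genes tested by the Benjamini-Hochberg method, with a threshold of 0.05. Fold changes are 29°C over 18°C, or hypomorph over WT, on the log2 scale, and the SE is the absolute log2 fold change divided by the square root of F. Alternatives were DESeq2 1.42.0 and its size factors, total-count scaling, other filters, only the groups compared, a replicate block, leaving out each library and, chosen after seeing the data, an antennal covariate. Every tested Obp gene is named. Those at 100 CPM or more, or called, have the value in every library, and the rest have a range. Pairs of libraries in a group differed by more than sampling noise (chi-square per degree of freedom 3.29 to 9.36). On simulated counts of 9553 genes with 200 changed by 1.5 (log2), 97% to 100% were recovered, depending on the comparison. There were 7 to 18 false calls. The changed genes were drawn from those above a minimum mean level, with the spread typical of their level. The recovery therefore does not describe the lowest Obp genes or those with a wider spread. Gene names, overlaps and neighbours are from the Ensembl annotation of BDGP6 (dm6), without coordinates. Or22a, Obp50b and Obp58d are not analysed here.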

Additional observations from a re-analysis of the deposited data

Results flagged for a closer look

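The temperature effect differed between the strains, by a test of the difference itself, for 3 of the 35 Obp genes. For Obp99b the effect in the hypomorph exceeded that in WT by 1.47 on the log2 scale, as its level fell at 29°C in WT and its hypomorph groups overlapped. For Obp49a the difference was -0.50, since only the hypomorph at 29°C was low, and for Obp56d it was -0.43, since the fall at 29°C was larger in the hypomorph. None of the 3 was called in the 8 numbered libraries, with or without a replicate block.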

How the results depend on the processing

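Of the 81 calls of Obp genes over the 5 comparisons, 49 were kept in each alternative fit that gave a value for them and 32 were lost in at least 1, and none changed direction. The filter of 10 counts in every library gave a value for 62 of the 81 and the fit of only the groups compared for 77. With 1 library at a time left out there were 14 to 19 calls for temperature in WT (18 with all libraries), 16 to 21 for temperature in the hypomorph (18), 17 to 26 for strain at 18°C (24), 14 to 19 for strain at 29°C (18) and 2 to 5 for the difference of temperature effects (3). Under the study's criterion of an absolute log2 fold change over 1 with an unadjusted p under 0.05 the counts were 5, 9, 13, 7 and 5, and with the adjusted p and a log2 fold change over 1 they were 5, 6, 12, 7 and 1. For strain at 18°C, a filter of 10 counts in every library gave 15 of 21 genes tested, and the antennal covariate, chosen after seeing the data, gave 11. The difference gave 8 calls with total-count scaling, 6 with DESeq2, 7 of 47 with all genes of at least 1 count and 7 of 21 with 10 counts in every library. Scaling by total counts moved the median of all genes by -0.19 (log2) for temperature in the hypomorph, 0.19 for strain at 18°C and -0.13 for the difference, and in the difference 12.5% of calls were higher in place of 33.3%. The same-numbered libraries did not deviate together across groups (mean correlation 0.0039, against 0.0057 for other numbers), and by pair of groups the same-number correlation ranged from -0.19 to 0.24. It was 0.24 for WT and hypomorph at 29°C, against -0.23 for other numbers, where replicate 2 of both strains had the most gut RNA (1325 and 328 CPM over 8 genes). The labels give no shared origin, so the numbers were not taken as pairs. In the 8 numbered libraries, a replicate block gave 19, 16, 19, 11 and 1 calls, and the fit of the same libraries with no block gave 19, 17, 21, 14 and 0. For temperature in WT, 14 of the 19 were among the 18 calls of all 12 libraries, and the other 5 were Obp19a, Obp59a, Obp83a, Obp83b and Obp84a. The 1 call of the difference under the block was Obp83b, which is not among the 3 with all libraries. Beside this 0, edgeR gave an unadjusted p under 0.05 for 16 genes, and DESeq2 with all 12 libraries called 6. The block left 2 libraries a group, and what moved these counts was not tested further. At 4409119 to 8806472 counts a library, the lowest genes tested rest on few counts, such as Obp59a with at most 24 in a library. Differences in such genes may not be detectable. Large ones could be called at low levels, as Obp47b, at a mean of 5.28 CPM, was called for strain at both temperatures.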

Other observations

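The number of Obp genes with at least 1 count was 45 in WT replicate 2 at 29°C and 35 to 40 in the other 11 libraries. In this library Obp50a, Obp50c, Obp50d, Obp22a and Obp46a each had counts, at 0.137 CPM for Obp50a and 1.10 CPM for Obp22a, and the seminal fluid genes Obp22a, Obp51a, Obp56f and Obp56i summed to 12.1 CPM, against 1.37 to 5.84 CPM elsewhere. The Obp57 cluster as a whole changed little with temperature, summing to 492 to 559 CPM at 18°C and 515 to 541 CPM at 29°C in WT, and to 408 to 445 CPM and 419 to 427 CPM in the hypomorph, while Obp57a and Obp57b within it moved in opposite directions in WT. The Obp99 cluster summed to 1729 to 2033 CPM in WT at 18°C and to 932 to 1355 CPM in the other 3 groups.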
